A study of Brassica rapa and Brassica rapa x Brassica nigra and Brassica nigra with 18 samples.

Results

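The change in expression between meiosis and mitosis was compared between anthers of a synthetic Brassica allohaploid (AB) and anthers of its pollen parent Brassica nigra (BB), over the genes of the B genome. All 35686 genes of the count table whose identifier begins with BjuB were taken, out of 79644 identifiers in all, and 21204 of them passed a filter on low counts and were tested. The AB plants came from a cross of B. rapa as seed parent with B. nigra as pollen parent, are labelled haploid and are also described as Brassica juncea, the species that combines both genomes. The 4 groups were AB at mitosis, AB at meiosis, BB at mitosis and BB at meiosis, with 3 libraries each, so 12 of the 18 libraries of the series were compared. The other 6 came from B. rapa (AA), which has no B genome, and served only to show which B genes also collect A reads. No treatment, plant age, plant number or pooling is given in the sources used here, and whether replicate libraries stem from different plants is not stated. The p-values therefore cover the variation among these libraries alone, which could be technical.

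In an anther, spore mother cells go through meiosis and release haploid microspores, which then divide by mitosis and mature into pollen. The surrounding tapetum feeds the microspores and builds much of the pollen wall before it breaks down, so the RNA of a whole anther shifts from somatic and meiotic transcripts to those of pollen. In an allohaploid each chromosome lacks an identical partner, and such plants are known for unpaired chromosomes at meiosis and for poor pollen. A stage change that differs between AB and BB can come from a different level at meiosis, at mitosis or at both. The genes were sorted by this. In bulk anthers, fewer cells of a type and less RNA per cell cannot be told apart.

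The B counts were 4931480 to 5330117 per library in AB at mitosis, 5067538 to 5136561 in AB at meiosis, 8161920 to 8914722 in BB at mitosis and 8859616 to 9283276 in BB at meiosis. Levels are CPM, the counts of a gene scaled to a common total of B counts per library. They are thus relative to the other B genes of the same library, and total output of the B genome was not measured. The files do not pair identifiers with gene names, and none of the identifiers was found among 51589 B. rapa genes in a reference table. The labelled tissue and stage could therefore not be checked against marker genes, and gene functions are not described.

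The stage change differed between AB and BB for a large part of the B genome. With edgeR's quasi-likelihood test and a Benjamini-Hochberg adjusted p under 0.05, 10148 genes were called, 47.9% of those tested. The difference of the stage changes is the log2 change from meiosis to mitosis in AB minus that in BB, and it was positive for 5138 genes (24.2%) and negative for 5010 (23.6%). A difference of at least 2-fold was reached by 6190 called genes (29.2%) and of at least 4-fold by 2430. Of these 2430 genes, 630 were at least 16-fold apart in the fit, and 281 of these had 0 counts in all libraries of a group, where the fitted size depends on the small count that the model adds. With library sizes and their scaling factors taken from all genes in place of B genes, the median difference over all tested genes moved by 0.31 on the log2 scale. The split then became 7147 positive and 3543 negative. With limma on log2(FPKM + 1), scaled to all counts without such factors, the median moved by 0.06 and the split was 6653 and 5902. Without the filter on low counts the split was 6011 and 4506. It was 5519 and 4320 without genes shared with AA, as defined below. The balance of the directions therefore depended on the scaling and on which B genes were kept.

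Most of these genes still moved between the stages in both kinds of anther. Of all tested genes, 76.8% were called for the stage change in AB and 75.3% in BB. Among the 10148 genes, 2753 rose at mitosis in both and 2703 fell in both. Of the genes that rose in both, 1634 rose more in AB and 1119 less. Of those that fell in both, 1472 fell more in AB and 1231 less. A stage change called in AB but not in BB was found for 868 genes that rose and 912 that fell in AB. The reverse, a change called in BB but not in AB, was found for 788 genes that rose and 723 that fell in BB. The remaining genes were 68 called for neither stage change and 1333 that moved in opposite directions.

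Each difference of the stage changes is exactly the AB minus BB difference at mitosis less the AB minus BB difference at meiosis. A gene was assigned to the mitosis level when its difference at mitosis was called and at least 2 times as large as the one at meiosis, and to the meiosis level in the converse case. The mitosis level accounted for 2363 of the called genes (23.3%) and the meiosis level for 4901 (48.3%). A further 2189 genes (21.6%) met neither rule and had estimates of opposite sign at the stages, 1454 of them with AB against BB called at both stages, and 695 (6.85%) differed in the same direction at both. The meiosis class was the larger one under each processing alternative tried, but its size and its genes moved. With library sizes from all genes the classes held 2342 and 5569 genes, and with limma on log2(FPKM + 1), whose values are scaled to all counts of a library, they held 4362 and 4590. Of these genes, 1219 and 3684 were in the same class of the sort given here with library sizes from all genes, and 820 and 1989 with limma.

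**Figure D1:**
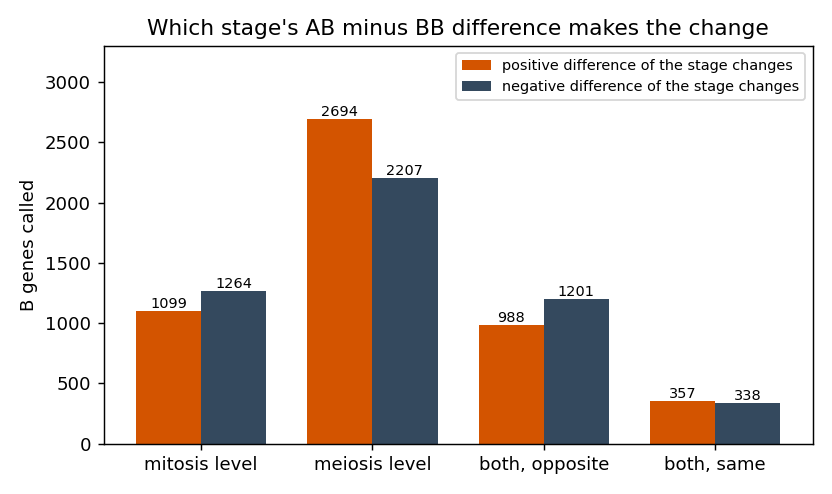
Number of B genes called for a different stage change in AB and BB (vertical axis), by the stage whose AB minus BB difference makes it, with bars for positive and negative differences of the stage changes. The tallest bars are the 2694 positive and 2207 negative genes of the meiosis level, against 1099 and 1264 of the mitosis level.

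**Figure D2:**
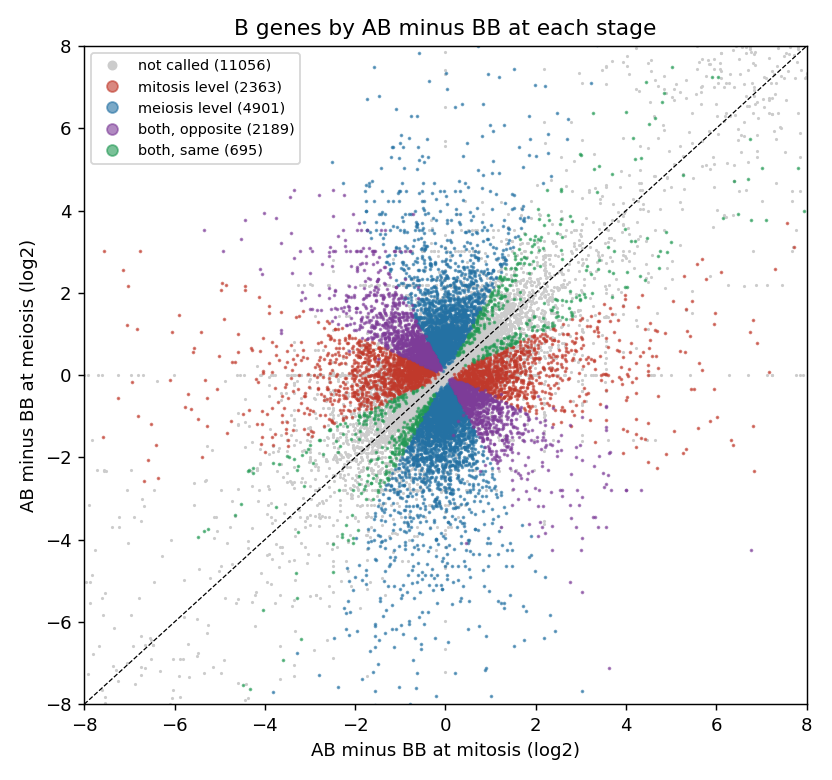
AB minus BB difference at mitosis (horizontal axis) and at meiosis (vertical axis) for the tested B genes, both on the log2 scale, coloured by class. The dashed line marks equal differences at both stages, called genes lie away from it, and 541 genes outside the axis limits of 8 are not drawn.

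Relative to the other B genes, differences between AB and BB were also wider at meiosis when no sorting was used. AB against BB was called for 57.2% of tested genes at mitosis, 5677 higher and 6460 lower in AB, and for 63.5% at meiosis, 6759 higher and 6705 lower. B genes took 43.8% of all counts in AB at both stages, against 83.5% in BB at mitosis and 84.2% in BB at meiosis. Scaling to all counts therefore tends to set B genes as a group lower in AB. With library sizes from all genes there were 4424 higher and 8192 lower at mitosis and 3894 higher and 10271 lower at meiosis. With limma on log2(FPKM + 1) more genes were called at mitosis, 2219 higher and 13880 lower, than at meiosis, 2421 higher and 13046 lower. The middle 50% of the log2 differences lay between -0.59 and 0.55 at mitosis and between -0.74 and 0.77 at meiosis. The median absolute difference was 0.58 at mitosis and 0.75 at meiosis, and the meiosis difference was the larger one for 12271 genes (57.9%). Among the 14028 genes that averaged 10 or more counts in every group, the medians were 0.43 at mitosis and 0.61 at meiosis, while the median standard errors were 0.143 and 0.142. The precision of the comparison was thus about equal at both stages for these genes.

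What distinguished AB from BB at one stage carried over only in part to the other. Across the 21204 genes the AB minus BB differences at mitosis and at meiosis had a Spearman correlation of 0.352, and of 0.288 over the 19742 genes not shared with AA, as defined below. Both values share the scaling of the libraries and any A reads that fall on a B gene, and genes are not independent replicates. AB was higher than BB at both stages for 3015 genes and lower at both for 2905. It was lower at mitosis and higher at meiosis for 1364 genes, and higher at mitosis and lower at meiosis for 1134.

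Among the genes of the meiosis level, the 2694 with a positive difference were those lower in AB than in BB at meiosis. Their median log2 difference AB minus BB was -0.05 at mitosis and -1.31 at meiosis. They took 19.8% ± 0.0767 of B counts in AB at mitosis and 9.96% ± 0.0539 in AB at meiosis, against 19.3% ± 0.260 in BB at mitosis and 25.9% ± 0.106 in BB at meiosis (SD, n = 3 libraries here and below). The AB libraries at meiosis stood apart from the other 9 and the groups did not overlap at meiosis. Because the class was chosen in these libraries, the shares are a description and carry no test. The share was spread over many genes: 196 genes made up at least 50% of it in AB at meiosis and 170 in BB at meiosis, and the most abundant gene took 1.84% and 3.73% of it.

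The stage changes of these 2694 genes took several forms. In 1009 of them expression rose in both AB and BB, with the larger rise in AB, and in 535 it fell in both, with the smaller fall in AB. Another 446 rose in AB with no call in BB, 341 fell in BB with no call in AB, and 354 rose in AB and fell in BB. In 81 of the genes no count was found in AB at meiosis, where 3 counts over the group would be 0.191 CPM. Their level in BB at meiosis was 1.22 CPM in the median and 342 CPM at most, so that AB was at least 6.42-fold lower in the median gene and at least 1793-fold lower in the extreme one. Only 4 of the 81 reached 10 CPM in BB.

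The 2207 genes of the meiosis level with a negative difference were higher in AB than in BB at meiosis. Their median AB minus BB difference was -0.01 at mitosis and 1.22 at meiosis. These genes held 12.9% ± 0.0766 of B counts in AB at mitosis and 25.8% ± 0.0201 in AB at meiosis, against 12.3% ± 0.0926 in BB at mitosis and 12.6% ± 0.0922 in BB at meiosis. Again the AB libraries at meiosis were the ones that stood apart, here on the high side. Expression fell in both AB and BB for 765 of these genes, fell in AB with no call in BB for 426, and fell in AB but rose in BB for 289. It rose in both for 401, with the smaller rise in AB, and rose in BB with no call in AB for 304. No count was found in BB at meiosis for 77 of them, of which 1 reached 10 CPM in AB at that stage.

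**Figure D3:**
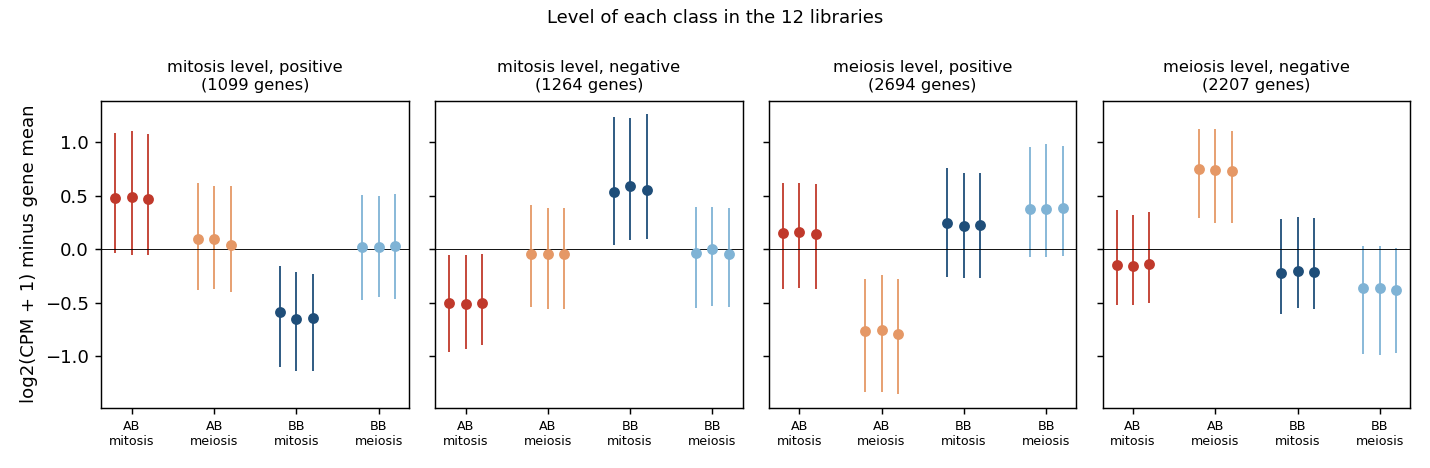
Level of the genes of each class in the 12 libraries, as log2(CPM + 1) minus the mean of the gene over all libraries (vertical axis). Points are medians over genes and bars the middle 50%, with 3 libraries in each of AB mitosis, AB meiosis, BB mitosis and BB meiosis. In both meiosis panels the AB libraries at meiosis are farthest from 0, at -0.79 to -0.75 and at 0.73 to 0.75.

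Genes were eligible for naming with at least 10 CPM in the highest group, an average of 10 or more counts in every group and under 10% of parental CPM from AA, which leaves out some larger differences. Among them, the largest positive differences of the meiosis level were those of BjuB042898 and BjuB048813. The level of BjuB042898 was 459.5, 481 and 516 CPM in AB at mitosis and 5.96, 9.18 and 7.75 CPM in AB at meiosis. In BB it was 182, 206 and 151 CPM at mitosis and 304, 331 and 298 CPM at meiosis. The gene was thus low in AB at meiosis and high in the other 3 groups, and AB and BB did not overlap at either stage. Its log2 stage change was 5.99 (SE 0.12) in AB and -0.79 (SE 0.07) in BB, and the difference was 6.78 (SE 0.15, edgeR adjusted p = 5.27e-24). BjuB048813 had 494, 504 and 530.3 CPM in AB at mitosis and 3.27, 5.36 and 3.59 CPM in AB at meiosis, against 232, 217 and 207 CPM in BB at mitosis and 192, 194 and 188 CPM in BB at meiosis. In BB this gene moved little between the stages, with a log2 change of 0.19 (SE 0.05), whereas in AB it changed by 6.96 (SE 0.10). The difference was 6.77 (SE 0.12, edgeR adjusted p = 1.06e-25), made up of an AB minus BB difference of 1.22 (SE 0.05) at mitosis and of -5.55 (SE 0.11) at meiosis. AB was thus also called higher at mitosis, as it was for BjuB042898 with 1.43 (SE 0.07).

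The largest negative differences of the meiosis level among the eligible genes were those of BjuB022428 and BjuB003936. BjuB022428 stood at 50.9, 58.2 and 54.1 CPM in AB at mitosis and at 174, 183 and 168 CPM in AB at meiosis. The BB libraries had 160.5, 181 and 163 CPM at mitosis and 7.98, 6.07 and 5.79 CPM at meiosis. Levels of the gene were highest, and similar, in AB at meiosis and in BB at mitosis. Its log2 change was -1.69 (SE 0.08) in AB and 4.66 (SE 0.10) in BB, a difference of -6.35 (SE 0.13, edgeR adjusted p = 1.09e-24). BjuB003936 was weakly expressed, at 5.54, 5.33 and 3.89 CPM in AB at mitosis and 12.7, 14.0 and 11.1 CPM in AB at meiosis, against 11.1, 16.3 and 10.8 CPM in BB at mitosis and 2.05, 1.32 and 0.737 CPM in BB at meiosis. It showed the same crossing pattern, with a difference of -4.56 (SE 0.39, edgeR adjusted p = 8.69e-11).

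Among the genes of the mitosis level, 1099 had a positive difference and were higher in AB than in BB at mitosis. Their median AB minus BB difference was 1.24 at mitosis and 0.01 at meiosis. They took 12.7% ± 0.0989 of B counts in AB at mitosis and 10.9% ± 0.0568 in AB at meiosis, against 4.32% ± 0.107 in BB at mitosis and 9.91% ± 0.0287 in BB at meiosis. Here the BB libraries at mitosis held the lowest share. In the median gene, log2(CPM + 1) minus the gene's mean over all libraries was 0.47 to 0.49 in AB at mitosis and -0.65 to -0.59 in BB at mitosis. The shares leaned on few genes: the 10 most abundant genes held 34.2% of the class in AB at mitosis, and 1 gene held 25.6% of it in AB at meiosis. Expression fell in both AB and BB for 332 of the genes, with the smaller fall in AB, and rose in both for 240, with the larger rise in AB. It fell in BB with no call in AB for 188, rose in AB with no call in BB for 187, and rose in AB but fell in BB for 141.

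The other 1264 genes of the mitosis level were lower in AB than in BB at mitosis, with a median AB minus BB difference of -1.15 at mitosis and 0.04 at meiosis. Together they held 5.78% ± 0.0591 of B counts in AB at mitosis and 7.15% ± 0.00904 in AB at meiosis, against 11.5% ± 0.204 in BB at mitosis and 7.25% ± 0.0116 in BB at meiosis. By share, the BB libraries at mitosis stood apart on the high side. In the median gene both groups at mitosis departed from the gene's mean over all libraries. As log2(CPM + 1), AB at mitosis stood at -0.51 to -0.50 from it and BB at mitosis at 0.54 to 0.59. In 330 genes expression rose in both AB and BB, with the smaller rise in AB, and in 239 it rose in BB with no call in AB. It fell in both for 309, fell in AB with no call in BB for 210, and fell in AB but rose in BB for 166. Genes that rose in both with the smaller rise in AB were therefore placed at the mitosis level in 330 cases and at the meiosis level in 401 cases.

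Among the genes eligible for naming, the largest positive differences of the mitosis level were those of BjuB021372 and BjuB045418. BjuB021372 had 4886, 4966 and 5188 CPM in AB at mitosis and 14.6, 16.3 and 19.8 CPM in AB at meiosis. The BB libraries had 317, 306 and 307 CPM at mitosis and 25, 24.4 and 24.3 CPM at meiosis. The gene rose in both kinds of anther, far more in AB, and the groups did not overlap at either stage. Its log2 change was 8.21 (SE 0.07) in AB and 3.66 (SE 0.06) in BB, a difference of 4.55 (SE 0.10, edgeR adjusted p = 1.3e-23). For BjuB045418 the levels were 577, 624 and 619 CPM in AB at mitosis and 12.9, 8.99 and 12.7 CPM in AB at meiosis, against 36.5, 38.4 and 35.2 CPM in BB at mitosis and 11.3, 12.4 and 11.5 CPM in BB at meiosis. The groups overlapped at meiosis and were far apart at mitosis, with a difference of the stage changes of 4.07 (SE 0.14, edgeR adjusted p = 4e-19).

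The largest negative differences of the mitosis level among the eligible genes were those of BjuB043352 and BjuB046491, both of low level in AB. BjuB043352 had 7.52, 7.89 and 6.85 CPM in AB at mitosis and 6.35, 5.74 and 3.78 CPM in AB at meiosis. In BB its levels were 78.4, 92.9 and 83.8 CPM at mitosis and 4.20, 3.31 and 3.05 CPM at meiosis. AB and BB overlapped at meiosis and were apart at mitosis. AB was nevertheless called higher at meiosis (log2 difference 0.58, SE 0.22, edgeR adjusted p = 0.0247). The log2 change was 0.49 (SE 0.21) in AB and 4.59 (SE 0.15) in BB. The difference was -4.10 (SE 0.28, edgeR adjusted p = 9.16e-13). BjuB046491 had 2.57, 1.58 and 5.00 CPM in AB at mitosis and 4.62, 3.63 and 4.35 CPM in AB at meiosis, against 33.0, 30.1 and 27.1 CPM in BB at mitosis and 2.91, 2.87 and 3.16 CPM in BB at meiosis. It rose in BB and was not called in AB (log2 change -0.44, SE 0.31, edgeR adjusted p = 0.201), and the difference was -3.77 (SE 0.39, edgeR adjusted p = 3.18e-09).

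**Figure D4:**
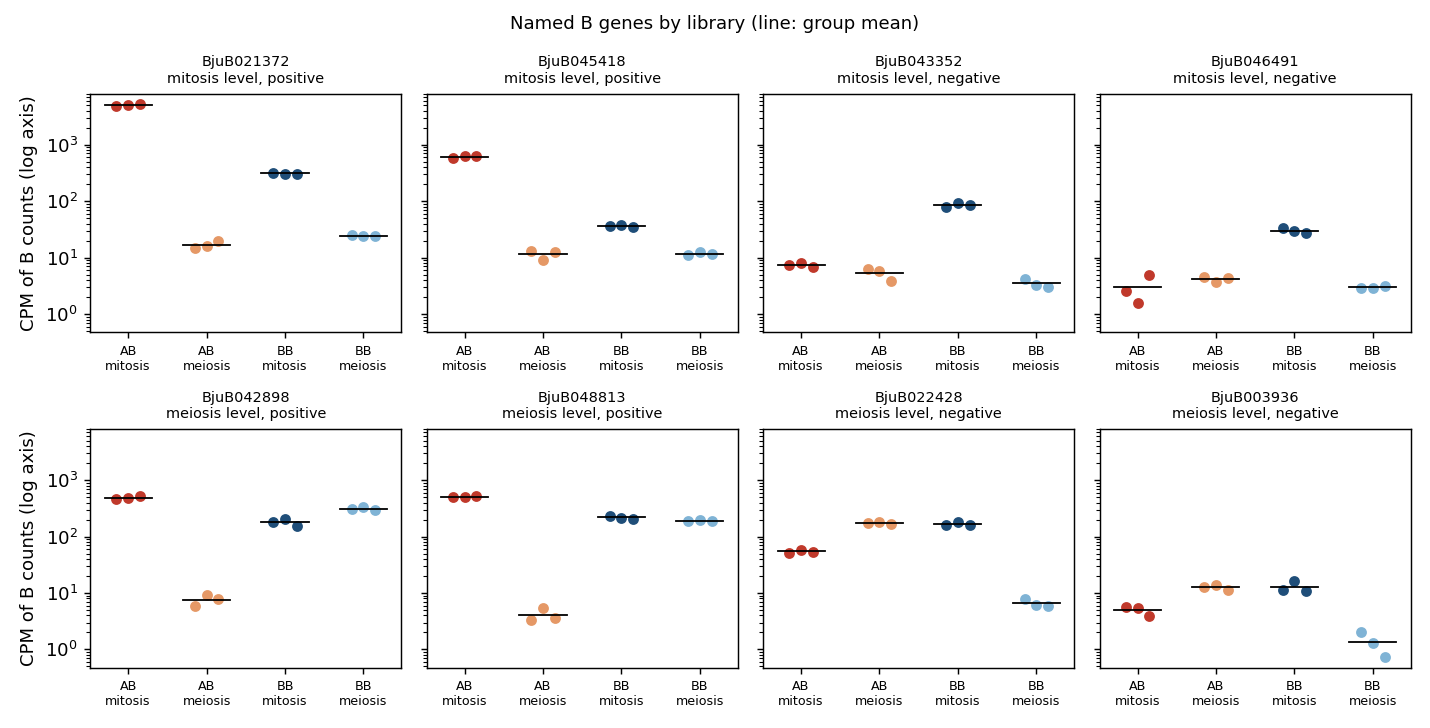
CPM of B counts (vertical axis, log scale) of the 8 named genes in each library of AB mitosis, AB meiosis, BB mitosis and BB meiosis, with points for libraries and lines for group means. In the lower row the AB libraries at meiosis are low for BjuB042898 and BjuB048813 and high for BjuB022428 and BjuB003936, and in the upper row AB and BB part at mitosis.

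The genes placed at neither stage alone included the 2189 with opposite estimates at the stages, of which 735 were called at 1 stage or at neither. The 988 positive ones had a median AB minus BB difference of 0.67 at mitosis and -0.68 at meiosis, and the 1201 negative ones of -0.72 at mitosis and 0.73 at meiosis. The positive ones held 9.50% ± 0.150 of B counts in AB at mitosis and 6.12% ± 0.0222 in AB at meiosis, against 4.24% ± 0.129 in BB at mitosis and 10.5% ± 0.0376 in BB at meiosis. The shares thus ran in opposite directions between the stages in AB and in BB, but 1 gene held 29.8% of the class in AB at meiosis and 34.3% in BB at meiosis. The negative ones held 6.85% ± 0.0466 in AB at mitosis and 7.37% ± 0.0298 in AB at meiosis, against 14.1% ± 0.244 in BB at mitosis and 4.92% ± 0.00869 in BB at meiosis. In BB at mitosis 10 genes made up at least 50% of that share. The 695 genes with the same direction at both stages were smaller in their difference of the stage changes, which reached 2-fold in 26.9% of them, against 60.1% of the genes of the mitosis level and 61.7% of those of the meiosis level.

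For 1333 of the 21204 tested genes the stage change was called in both AB and BB with opposite signs. Of these, 652 (6.42% of the called genes) rose in AB and fell in BB, with median log2 changes of 0.82 in AB and -0.69 in BB. The other 681 (6.71%) fell in AB and rose in BB, with medians of -0.81 and 0.73. Most were modest, since 90 of the first and 132 of the second group changed at least 2-fold in both. The mitosis level accounted for 141 and the meiosis level for 354 of the genes that rose in AB. For those that fell in AB, the mitosis level accounted for 166 genes and the meiosis level for 289.

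The shares of the mitosis and meiosis levels varied little with the size of the difference, unlike those of the other 2 classes. Of called genes below 2-fold, the mitosis level accounted for 23.8% and the meiosis level for 47.4%. Between 2-fold and 4-fold these shares were 22.8% and 51.0%, and between 4-fold and 16-fold they were 24.1% and 43.6%. At 16-fold and over, where 281 of 630 genes had a group at 0 counts, they were 20.3% and 51.4%. Genes with the same direction at both stages numbered 508 of 3958 called genes below 2-fold and 35 of 1800 between 4-fold and 16-fold. Those with opposite estimates numbered 631 and 546 in the same ranges. The share of genes called was higher at higher levels. It was 13.7% of 534 genes under 1 CPM, 28.4% of 8359 genes between 1 and 10 CPM, 59.0% of 10241 genes between 10 and 100 CPM and 79.7% of 2070 genes at 100 CPM and over. The meiosis level accounted for 23.3%, 44.3%, 49.4% and 51.2% of the called genes in these ranges, and the mitosis level for 34.2%, 27.5%, 22.0% and 21.5%. The lowest range, with 73 called genes, was thus the only one of the 4 in which the mitosis level held more genes. Just inside the limit of the sort, at a ratio under 2.05, 64 genes of the meiosis level had median absolute differences of 0.62 at mitosis and 1.25 at meiosis, and 80 genes just outside it had 0.69 and 1.37.

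When the classes were chosen on replicates 1 and 2 alone, replicate 3 showed the same arrangement. The 835 positive and 1047 negative genes of the mitosis level had median AB minus BB differences in replicate 3 of 1.21 and -1.05 at mitosis and of 0.04 and 0.00 at meiosis. For the 2289 positive and 1869 negative genes of the meiosis level, these medians were -0.07 and 0.03 at mitosis and -1.31 and 1.14 at meiosis. The stage that had placed the gene in its class had the larger difference in replicate 3 for between 91.7% and 94.8% of the genes of each class. If the libraries of a group share their plants, this removes only selection on noise between libraries.

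Coding length moved with the meiosis differences. The median coding length was 1131 bases for positive and 1042.5 for negative genes of the mitosis level, but 1426.5 for positive and 858 for negative genes of the meiosis level, against 1104 over all tested genes. The tested genes were divided by length into 4 bins of about equal number. From the shortest to the longest bin, the median AB minus BB difference was -0.01, 0.01, -0.04 and -0.06 at mitosis. At meiosis the medians of the bins were 0.33, 0.10, -0.02 and -0.31, so that short genes were higher and long genes lower in AB relative to BB. Across the 21204 genes the Spearman correlation with length was -0.016 for the difference at mitosis and -0.181 for that at meiosis. The coding length at which 50% of the B counts of a library were reached was 1119 bases in AB at mitosis, 951 to 960 in AB at meiosis, 1170 to 1176 in BB at mitosis and 1077 to 1086 in BB at meiosis. With the trend on length taken out of each library, a step chosen after seeing the data, 2507 genes fell to the mitosis level and 4488 to the meiosis level. Of those at the meiosis level, 2558 were positive, with a median length of 1209 bases, and 1930 negative, with 1038.

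**Figure D5:**
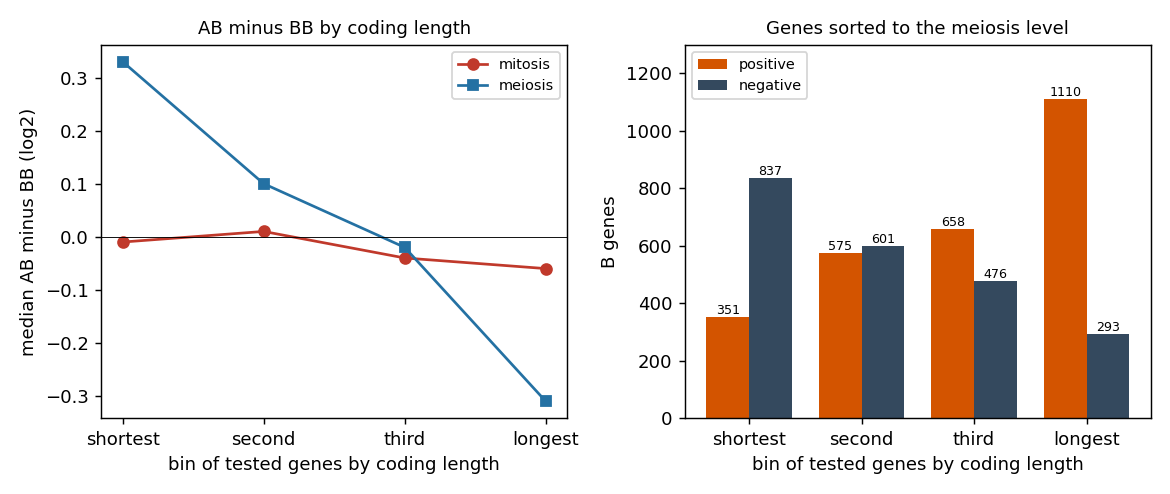
Left, median AB minus BB difference on the log2 scale (vertical axis) at mitosis and at meiosis in the 4 bins of tested B genes by coding length (horizontal axis). Right, number of genes sorted to the meiosis level, where the positive ones number 351 in the shortest and 1110 in the longest bin and the negative ones 837 and 293.

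B genes can also collect reads of the A genome in AB. A gene was called shared with AA when at least 10% of its parental CPM of all counts came from AA. Of all tested genes, 6.89% were shared, and the classes higher in AB held more of them than the classes lower in AB. Among the classes higher in AB the shares were 7.83% of the positive genes of the mitosis level and 5.98% of the negative genes of the meiosis level. In the classes lower in AB they were 1.5% of the negative genes of the mitosis level and 1.74% of the positive genes of the meiosis level. Among shared genes within the CPM and count limits for naming, the largest difference was that of BjuB045267, which drew 95.5% of its parental CPM from AA. It stood at 734, 709.9 and 747 CPM in AB at mitosis and 21.2, 18.6 and 17.8 CPM in AB at meiosis, against 18.4, 17.7 and 19.1 CPM in BB at mitosis and 14, 12.6 and 12 CPM in BB at meiosis. Its difference of 4.74 (SE 0.13, edgeR adjusted p = 8.8e-22) therefore cannot be told apart from expression of the A genome. When all shared genes were left out before scaling and fitting, 5519 genes were positive and 4320 negative, and the mitosis and meiosis levels accounted for 2274 and 4824. Of these, 2048 and 4349 had been in the same class with the shared genes included.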

How the data were processed

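Messenger RNA of 18 anther libraries was deposited by the authors as raw counts per gene and as FPKM. Tools named in the submitters' processing notes are HTSeq 0.6.0, HISAT2 2.1.0, Bowtie 1.0.1 and TopHat2. Their roles, the genome build, the strand setting and the treatment of reads matching several genes were not given in the sources used here. Near-identical A and B copies can therefore exchange reads. Each deposited FPKM value equalled the count over a fixed length and the library total (largest relative deviation 5.32e-08), and these lengths, 99.9% multiples of 3, served as coding lengths. A repeated column of 1 AA library was not used.

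Counts of the 12 AB and BB libraries over B genes were scaled by TMM (factors 0.930 to 1.03) and tested with edgeR 4.0.16 in R 4.3.3 (quasi-likelihood, 4 group means, filter by group, common dispersion 0.00592). P-values were adjusted over all 21204 tested genes, and standard errors came from the F statistics. Shares of counts carry no p, because the classes were chosen in the same libraries. Named genes are, per class and direction, the 2 largest differences among eligible genes. These had at least 10 CPM in the highest group, a mean of at least 10 counts in every group and under 10% of parental CPM from AA. The shared gene with the largest difference under the same CPM and count limits was added. Members, classes and marker lists were chosen with earlier results of these data known, and no marker could be matched. A count of 0 over a group allows up to 3 counts, for counting error only.

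The alternatives tried were upper-quartile or RLE scaling, DESeq2 1.42.0, library sizes from all genes, no filter, the replicate number as a block, limma 3.58.1 on log2(FPKM + 1) and log2(FPKM + 0.1), genes shared with AA left out, other size ratios of the sort, leaving out each library, and, added after seeing the data, coding length offsets and classes chosen on replicates 1 and 2. Replicates of a group differed by more than sampling noise (chi-square per degree of freedom 2.14 or more). The fits were tested on simulated counts of 20055 genes with few known changes. There edgeR called 17.9% of 67 genes changed 1.5-fold, 46.3% of 67 changed 2-fold and 78.8% of 66 changed 4-fold. It also called 7 of 19855 unchanged genes. The simulation held no length trend and no A reads, and in the real data 47.9% of genes were called. It therefore does not show how scaling and sorting behave when many genes change.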

Additional observations from a re-analysis of the deposited data

Results flagged for a closer look

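The stage change differed between AB and BB by the test of that difference itself for 5138 B genes with a positive and 5010 with a negative value. Opposite stage changes were called for 652 genes (6.42% of the called genes) that rose in AB and fell in BB and for 681 (6.71%) that fell in AB and rose in BB. Among single genes, the log2 difference of the stage changes was 4.55 for BjuB021372, 4.07 for BjuB045418, -4.10 for BjuB043352, -3.77 for BjuB046491, 6.78 for BjuB042898, 6.77 for BjuB048813, -6.35 for BjuB022428 and -4.56 for BjuB003936. It was 4.74 for BjuB045267, a gene shared with AA. In the AA libraries, which have no B genome and took no part in the comparison, 4.80% ± 0.160 of all counts at mitosis and 4.04% ± 0.0137 at meiosis fell on B genes (SD, n = 3). Groups of 3 libraries were too small for a search for single outlying libraries.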

How the results depend on the processing

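The 9 named genes kept their call and direction in each of the 197 refits of a named gene, with adjusted p of 2.4e-05 or smaller. They were chosen for the largest differences in the same libraries, so the kept calls are no independent support. BjuB045267 could not be refitted without genes shared with AA, being one of them, and no named gene was followed under other limits of the sort or the choice on replicates 1 and 2. Values of low genes shrank on log2(FPKM + 1): BjuB046491 stood at -2.23 there. Leaving out each of the 12 libraries gave 4863 to 5041 positive and 4676 to 4802 negative genes, 5979 to 6184 of at least 2-fold, 2212 to 2321 genes of the mitosis level and 4664 to 4799 of the meiosis level. The sort moved most. With limma the mitosis level held 4362 genes on log2(FPKM + 1) and 3565 on log2(FPKM + 0.1), where the median AB minus BB difference was -0.64 and -0.80 at mitosis. Of these, 820 and 825 were in the mitosis class of the count fit, and the directions split into 622 and 478 positive against 3740 and 3087 negative genes. The meiosis level held 3972 positive and 618 negative genes on log2(FPKM + 1), and 3727 and 515 on log2(FPKM + 0.1). At a size ratio of 4 the mitosis level held 1276 genes and the meiosis level 2881, fewer by construction, and by calls alone the meiosis level held 3235. With library sizes from all genes, the positive and negative genes of the meiosis level numbered 4577 and 992. As a share of all counts, the positive and negative genes of the mitosis level took 5.54% and 2.53% in AB at mitosis, and those of the meiosis level 4.36% and 11.3% in AB at meiosis. Without genes shared with AA, these shares of the B counts were 12.4%, 6.22%, 10.6% and 26.4%. With the replicate number as a block, 9958 genes were called, 2302 of the mitosis and 4835 of the meiosis level; the largest absolute correlation of deviations between libraries of the same number was 0.036, so the numbers are not taken as pairs. Without the filter on low counts 10517 genes were called and with DESeq2 9994. Calls were rarest among genes under 10 CPM, and whether depth limits them was not tested.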

Other observations

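Genes of unplaced sequence, left out of the comparison, took 6.46% ± 0.0454 of all counts in AB at mitosis and 7.15% ± 0.0179 in AB at meiosis, against 10.8% ± 0.0682 in BB at mitosis and 10.9% ± 0.00794 in BB at meiosis (SD, n = 3 libraries). The coding length at which 50% of the A counts of a library were reached was 966 to 972 bases in AB at meiosis and 903 to 909 in AA at meiosis. For A genes, AB at meiosis was thus on the longer side of its parent, whereas for B genes it was on the shorter side. At mitosis AB was on the shorter side for both genomes, with 1128 to 1134 bases for A genes against 1170 in AA. Among the tested B genes, 51 had no count in any AA or BB library and were counted in AB alone.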
